A study of Mus musculus with 5 samples.

Results

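Tetraspanin transcripts were followed by bulk RNA-seq in the CD8 T cells that are about to leave the mouse thymus, the mature CD8 SP (single-positive) thymocytes, purified by sorting. The set was a named list of 10 genes (Tspan32, Tspan13, Tspan31, Cd9, Cd37, Cd53, Cd63, Cd81, Cd82 and Cd151), and all 10 had a row among the 35976 genes of the count files. The mice were either wild type (Runx3 +/+, 2 libraries) or carried 1 copy of an allele named WRPW at the Runx3 locus (Runx3 +/WRPW, 3 libraries). No other allele or agent is named for either genotype. The labels give neither age nor strain background, do not spell out the sequence change of the WRPW allele, and do not say that libraries of a genotype came from separate animals. The spread behind each test is therefore that between libraries and may be technical. The comparison asked how transcripts differ when one of the Runx3 alleles is WRPW, and the list was selected on gene names while the log2 differences of this same comparison were already known, Tspan32 having one of the largest decreases. The genotype differences of the 10 members are therefore a description of these libraries and carry no p-value of their own.

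Tetraspanins are small membrane proteins that cross the membrane several times and fold into a short and a long extracellular loop. They bind each other and partner proteins, such as integrins, immunoglobulin-superfamily proteins and metalloproteases, and so arrange these in microdomains of the plasma membrane or of endosomes. In lymphocytes they are known for setting the surface level of their partners and for tuning adhesion and antigen receptor signals. Runx3 is the Runt-domain factor that maintains the CD8 lineage; as background, Runx proteins carry a C-terminal VWRPY motif that recruits Groucho/TLE corepressors, and WRPW is the form of that motif found in Hes repressors.

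Total counts ran from 15715242 to 43758550 per library. Runx3 itself stood at 273 and 357 CPM (counts scaled to a common library size, adjusted by TMM factors) in the Runx3 +/+ libraries and at 341 to 422 CPM in the Runx3 +/WRPW libraries, and the counts do not show which allele was transcribed. Runx3 +/WRPW library 2 stood apart, with a count at 27414 genes against 17237 to 18967 in the other 4. The 9 CD8 T cell markers with a row summed to 7328 and 7375 CPM in Runx3 +/+ and to 6192 to 6858 CPM in Runx3 +/WRPW, with Cd3d and Ccr7 among those lower. The 5 B cell markers summed to 9.71 and 9.75 CPM against 3.04 to 5.36 CPM, with 1 of them, Cd79b, lower. The 5 platelet markers summed to 4.40 and 4.90 CPM against 3.34 to 4.30 CPM, with Pf4 and Ppbp at 0 in both Runx3 +/+ libraries. Nearly all of each sum was Itga2b outside Runx3 +/WRPW library 2, where Itga2b was at 3.18, Gp9 at 0.560 and Pf4 at 0.498 CPM. Of 7 double-positive or immature thymocyte markers, 2 were lower (Dntt and Ccr9), with sums of 860 and 981 against 423 to 583 CPM that were mostly Ccr9, while Rag1 was at no more than 0.644 CPM. Of 4 regulatory T cell markers, 2 were lower: Foxp3 by 9.29-fold (5.09 and 9.63 CPM against 0.414 to 1.19 CPM) and Ctla4 by 4.98-fold (4.20 and 8.59 CPM against 1.10 to 1.58 CPM). The sums of this list, 207 and 328 against 174 to 334 CPM, were mostly Ikzf2, which overlapped between genotypes. The 4 CD4 SP markers summed to 38.9 and 55.6 CPM against 28.7 to 34.7 CPM, mostly Gata3 (37.8 and 49.3 against 28.0 to 33.8 CPM). Cd4 itself had 10 and 134 counts (0.467 and 5.36 CPM) in Runx3 +/+ libraries 1 and 2. In Runx3 +/WRPW it had 7, 6 and 1 counts. The 7 stromal markers summed to 188 and 149 CPM against 82.2 to 105 CPM, mostly Pecam1, which was lower. The 8 myeloid markers summed to 6.19 to 7.94 CPM and the 4 NK, NKT or gamma-delta T cell markers to 0.777 to 1.52 CPM outside Runx3 +/WRPW library 2, where they reached 19.7 and 11.7 CPM. Erythroid markers stayed at or below 0.869 CPM. The part of these cells in the results below was not tested. In bulk RNA, fewer cells that express a gene and less of its RNA per cell cannot be told apart.

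The promoter of Tspan32 is shown because this gene had by far the largest difference of the set, and that of Cd81 because it is the next tetraspanin on the same chromosome. Each is the 250 bases before the annotated start, from RefSeq for GRCm38.p6 (mm10), at chr7:143004796-143005045 and chr7:143052500-143052749, both on the plus strand. For Tspan32 the RefSeq gene span begins inside this window, at 143004907, while every GENCODE M21 start of the gene lies after it. Capitals mark the 6-base Runx core motif, searched as TGTGGT and TGCGGT on both strands; these 2 forms cannot start at the same base.
Tspan32: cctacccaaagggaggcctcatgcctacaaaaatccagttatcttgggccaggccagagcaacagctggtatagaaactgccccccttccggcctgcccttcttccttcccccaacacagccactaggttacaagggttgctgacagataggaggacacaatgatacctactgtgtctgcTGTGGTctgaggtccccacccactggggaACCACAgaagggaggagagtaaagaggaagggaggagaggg
Cd81: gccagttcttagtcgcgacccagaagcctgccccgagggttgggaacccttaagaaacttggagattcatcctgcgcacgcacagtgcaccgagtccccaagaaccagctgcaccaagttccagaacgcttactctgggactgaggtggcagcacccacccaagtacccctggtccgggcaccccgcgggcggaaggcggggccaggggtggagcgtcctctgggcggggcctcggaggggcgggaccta
In the Tspan32 window TGTGGT was read at -70 to -65 from the start that ends the window and its reverse complement, ACCACA, at -41 to -36. Both matches lie inside the RefSeq gene span of Tspan32, which begins at 143004907. The Cd81 window held no match. Over the 300-base windows of the reference (250 bases before to 50 after a start), 22.4% of 32851 held at least 1 match and 2.86% held 2 or more. By gene, 3 of the 10 members had a match in any of their windows (Tspan32, Cd82 and Cd53), against 25.0% of all genes. Cd82 had 3 matches in 2 of its 4 windows, and Tspan2, a tetraspanin outside the list, had 3 matches in its 2 windows. A window with 2 matches was thus not particular to Tspan32. A match is a run of letters and says nothing about binding in these cells.

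Tspan32 (chromosome 7, 143004907 to 143019486) encodes a tetraspanin of blood cells that is known to restrain T cell proliferation and to act in platelets. It had 1810 and 2549 counts in Runx3 +/+ libraries 1 and 2, and 238, 103 and 96 counts in Runx3 +/WRPW libraries 1, 2 and 3. These are 84.5 and 102 CPM against 5.44, 6.41 and 4.42 CPM, so the genotypes were far apart and all 3 Runx3 +/WRPW libraries lay close together. The Runx3 +/+ mean was 93.2 ± 12.3 CPM (SD, n = 2) and the Runx3 +/WRPW mean 5.42 ± 0.999 CPM (SD, n = 3). The fitted log2 difference, Runx3 +/WRPW minus Runx3 +/+, was -4.11 ± 0.16 (SE), a 17.3-fold lower level, and it was -4.22 without Runx3 +/WRPW library 2. Tspan32 supplied 7.26% and 8.22% of the summed CPM of the 10 genes in Runx3 +/+ and 0.562%, 0.718% and 0.462% in Runx3 +/WRPW. The antisense gene Tspan32os overlaps 4.35% of its exon bases.

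Cd82 (chromosome 2, 93419102 to 93462950), a partner of integrins and a suppressor of cell migration, was next. It stood at 159 and 199 CPM in Runx3 +/+ and at 95.0, 73.2 and 79.9 CPM in Runx3 +/WRPW. Every Runx3 +/WRPW library was below both Runx3 +/+ libraries. The means were 179 ± 28.1 CPM (SD, n = 2) and 82.7 ± 11.2 CPM (SD, n = 3), a log2 difference of -1.11 ± 0.14 (SE) or 2.16-fold lower. In absolute CPM the Runx3 +/+ libraries, which were at the higher level, differed from each other more than the Runx3 +/WRPW libraries did. Without Runx3 +/+ library 2, the higher of the pair, the log2 difference was -0.95 and the gene was no longer called.

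Cd151 (chromosome 7, 141467362 to 141471481), which holds laminin-binding integrins in tetraspanin complexes, was low in both genotypes. It stood at 9.34 and 8.27 CPM in Runx3 +/+ and 11.2, 11.8 and 12.1 CPM in Runx3 +/WRPW, without overlap. The log2 difference was 0.41 ± 0.12 (SE), and the gene was not called. On the opposite strand, 7.04% of its exon bases belong to another annotated transcript, Gm10575.

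Tspan13 (chromosome 12, 36014555 to 36042478) was among the more abundant members. Its transcripts were at 148 and 164 CPM in Runx3 +/+ and at 97.4, 95.5 and 116 CPM in Runx3 +/WRPW. The genotypes did not overlap, and the gap was small beside that of Cd82. The log2 difference was -0.60 ± 0.10 (SE), or 1.51-fold lower.

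Cd81 (chromosome 7, 143052750 to 143067930) is a tetraspanin of lymphocytes that takes part in costimulation of T cells. It was at 35.8 and 31.3 CPM in Runx3 +/+ and 23.2, 26.2 and 25.8 CPM in Runx3 +/WRPW. The lowest Runx3 +/+ library lay above the highest Runx3 +/WRPW library. The log2 difference was -0.42 ± 0.10 (SE), or 1.34-fold lower. Its close relative Cd9 (chromosome 6, 125460266 to 125494760), also a marker of platelets and B cell subsets, was at 9.71 and 15.4 CPM against 10.9, 9.59 and 13.5 CPM. Here the genotypes overlapped, and the log2 difference was -0.15 ± 0.24 (SE). It was 0.21 without Runx3 +/+ library 2, so its sign rests on that library. Its exons overlap an antisense transcript, Gm26728, over 10.7% of their bases.

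Tspan31 (chromosome 10, 127067287 to 127070972) was the member that was higher in Runx3 +/WRPW by the largest amount. It was at 29.3 and 23.9 CPM in Runx3 +/+ and at 57.8, 47.2 and 38.0 CPM in Runx3 +/WRPW. The groups did not overlap, but the Runx3 +/WRPW libraries were spread widely. The log2 difference was 0.85 ± 0.19 (SE), or 1.80-fold higher. Tspan31 shares 29.2% of its exon bases with Cdk4, a cell-cycle kinase gene on the opposite strand, and the strand setting of the counting is not given, so reads of that stretch cannot be assigned. Cdk4 itself was at 155 to 172 CPM in Runx3 +/+ and 150 to 164 CPM in Runx3 +/WRPW, with a log2 difference of -0.05 ± 0.07 (SE).

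The pair of leukocyte-restricted members differed little. Cd53 (chromosome 3, 106758861 to 106790149), which supports the surface display of lymphocyte receptors, was at 487 and 492 CPM in Runx3 +/+ and 436, 376 and 477 CPM in Runx3 +/WRPW. All 3 Runx3 +/WRPW libraries were lower, library 3 only slightly. The log2 difference was -0.19 ± 0.11 (SE). Cd37 (chromosome 7, 45233632 to 45239340), best known from B cells and a restraint on T cell proliferation, was at 201 and 205 CPM against 231, 245 and 189 CPM. The groups overlapped, and the log2 difference was 0.13 ± 0.12 (SE).

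Cd63 (chromosome 10, 128896231 to 128912822), the tetraspanin of late endosomes and secreted vesicles, was near 0 in these files. It had 1 and 2 counts in Runx3 +/+ and 2, 24 and 0 counts in Runx3 +/WRPW. Nearly all of its counts came from Runx3 +/WRPW library 2. The ratio of pooled counts per total, Runx3 +/WRPW over Runx3 +/+, was 5.03 (95% interval 1.54 to 25.9, exact conditional binomial, counting error only), and 0.479 (0.0400 to 4.18) without that library. In the GENCODE M21 transcripts, 9.10% of the 50-base windows of Cd63 are also found in other genes, most of them in the pseudogene Cd63-ps. The files do not show how reads that fit several places were counted, so the low level of Cd63 is uncertain.

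**Figure D1:**
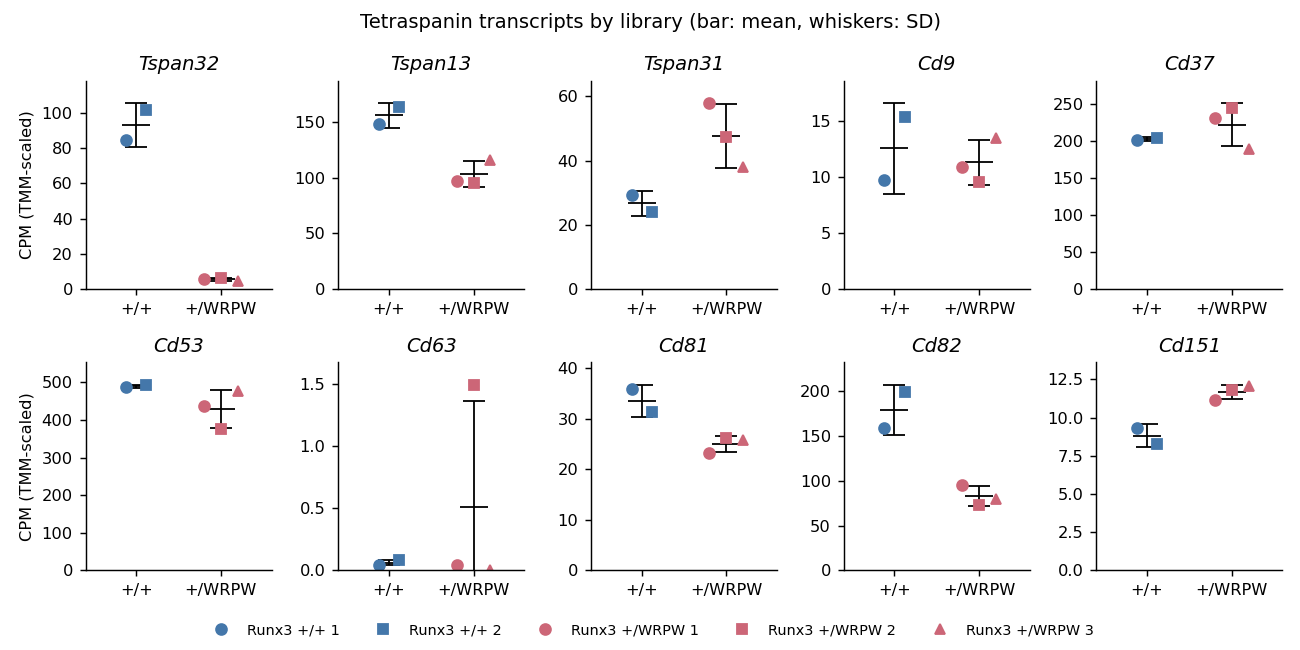
TMM-scaled CPM of the 10 tetraspanins in each library, with the mean (bar) and SD (whiskers) per genotype; each panel has its own axis from 0. Tspan32 lies at 84.5 and 102 CPM in Runx3 +/+ and at 4.42 to 6.41 CPM in Runx3 +/WRPW, while Cd37 and Cd9 overlap between genotypes and Cd63 is seen mainly in Runx3 +/WRPW library 2.

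Of the 10 members, 9 passed the count filter; Cd63 did not. In edgeR's quasi-likelihood fit across all 13666 tested genes, 5 of these 9 had a Benjamini-Hochberg adjusted p under 0.05, against 13.6% of all genes tested. By direction, 4 were lower (Tspan32, Cd82, Tspan13 and Cd81; 7.33% of all genes were lower) and 1 higher (Tspan31; 6.24% of all genes were higher). The genotypes did not overlap in CPM for 7 of the 9, against 48.5% of all tested genes. The median log2 difference of the 9 was -0.19, beside 0.02 over all genes. Since the list was drawn up from this contrast, nothing is read from these counts. Leaving out Runx3 +/WRPW library 1, 2 or 3 left 2, 3 or 4 of the 9 members called. Over all genes tested, the same fits called 768 of 13446, 1431 of 13303 and 950 of 13621. Fewer members were also called when a Runx3 +/+ library was left out, which leaves 1, and calls over all genes fell too. The log2 difference of Tspan32 was then -4.28 (without library 1) or -3.98 (without library 2). Tspan32 was called in all 13 alternative settings, Cd82 in 12, Tspan13 in 10, Tspan31 in 8 and Cd81 in 5. The call of Cd81 was lost whichever library was left out, and that of Tspan31 whenever a library other than Runx3 +/WRPW library 3 was. Tspan13 was not called when a Runx3 +/+ library or Runx3 +/WRPW library 1 was absent.

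Levels of different genes were compared per length, as RPKM (CPM divided by the exon length in kilobases), with the exons of all annotated transcripts of a gene joined. In Runx3 +/+ cells Cd53 was highest at 281 ± 2.2 RPKM (SD, n = 2). Tspan13 (63.0 ± 4.40 RPKM), Cd82 (59.5 ± 9.34 RPKM) and Cd37 (57.6 ± 0.711 RPKM) followed. Tspan13 overlapped Cd82, and Cd82 overlapped Cd37, while Cd37 and Tspan32 did not overlap. Tspan32 was the fifth at 15.0 ± 1.97 RPKM, above Tspan31 (12.1 ± 1.74 RPKM) and Cd81 (11.7 ± 1.10 RPKM), which overlapped each other. Cd9 (6.15 ± 1.98 RPKM) and Cd151 (3.21 ± 0.275 RPKM) were low.

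In Runx3 +/WRPW cells Cd53 remained highest, at 247 ± 29.1 RPKM (SD, n = 3). Cd37 was second at 63.0 ± 8.26 RPKM, above Tspan13 at 41.7 ± 4.65 RPKM without overlap. Cd82 (27.5 ± 3.71 RPKM) and Tspan31 (21.7 ± 4.52 RPKM) overlapped. Tspan32, at 0.870 ± 0.160 RPKM, had moved below Cd151 (4.26 ± 0.166 RPKM) to the ninth place. Its joined exons, 6234 bases, include retained introns, which lowers its level per length in both genotypes alike. Summed over the 10 members, the level was 497 and 522 RPKM in Runx3 +/+ and 432, 390 and 439 RPKM in Runx3 +/WRPW.

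**Figure D2:**
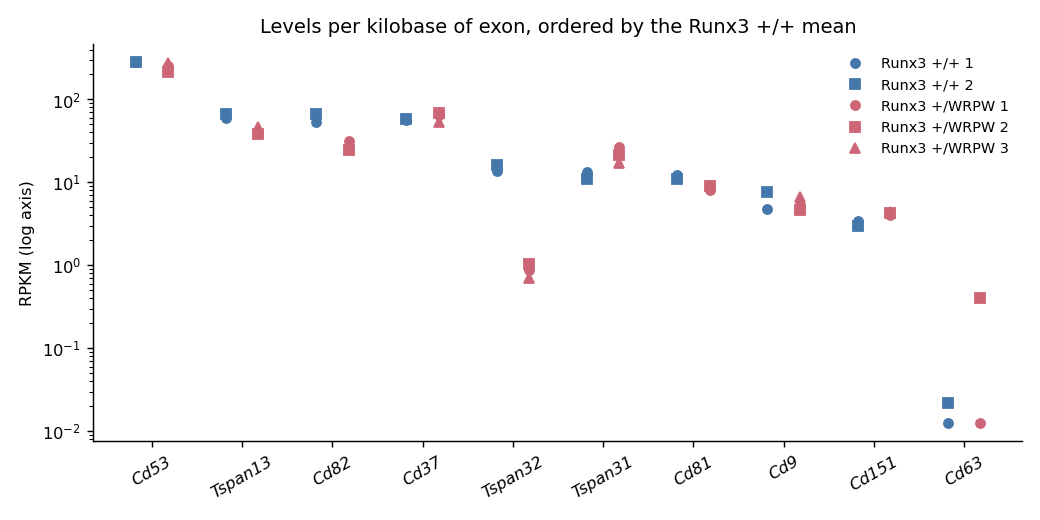
RPKM of the 10 tetraspanins on a log axis, ordered by the Runx3 +/+ mean, with 1 point per library; Cd63 in Runx3 +/WRPW library 3 is 0 and is not drawn. Cd53 is highest in both genotypes, and Tspan32 goes from the fifth place at 15.0 RPKM to the ninth at 0.870 RPKM.

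Tspan32 and Cd81 lie 47.8 kb apart, start to start, in a stretch of chromosome 7 that also holds the imprinted Kcnq1 domain. RefSeq places 28 genes, Tspan32 included, with a start within 500 kb of that of Tspan32. Of these, 25 had a row and 8 passed the count filter; 3 were lower in Runx3 +/WRPW, 0 higher and 5 did not pass, where 7.33% of all tested genes were lower. The 3 include Tspan32, on which the stretch was centred, and Cd81, another member, so nothing is read from this count. The third lower gene, beside Tspan32 and Cd81, was Ascl2 (142966822 to 142969264), which encodes a basic helix-loop-helix transcription factor and starts on the other side of Tspan32. It was at 3.78 and 4.04 CPM in Runx3 +/+ and 0.320, 0.125 and 0.414 CPM in Runx3 +/WRPW. The groups did not overlap, with a log2 difference of -3.71 ± 0.50 (SE; edgeR adjusted p = 0.00837). The call needed both Runx3 +/+ libraries: the log2 difference was -3.82 with library 1 left out and -3.70 with library 2 left out.

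Among the genes of this stretch that did not pass, R74862, a noncoding gene between Tspan32 and Cd81, was at 2.99 and 3.72 CPM against 0.549, 2.24 and 0.782 CPM. Its log2 difference was -1.53 ± 0.63 (SE; edgeR adjusted p = 0.168). R74862 lies opposite 3.61% of the exon bases of Cd81. Tssc4, which follows Cd81, was at 31.0 and 29.8 CPM against 30.1, 33.9 and 31.6 CPM, with a log2 difference of 0.06 ± 0.09 (SE; edgeR adjusted p = 0.670). Kcnq1ot1, the noncoding RNA of the imprinted domain, had a log2 difference of 0.42 ± 0.11 (SE; edgeR adjusted p = 0.0651).

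**Figure D3:**
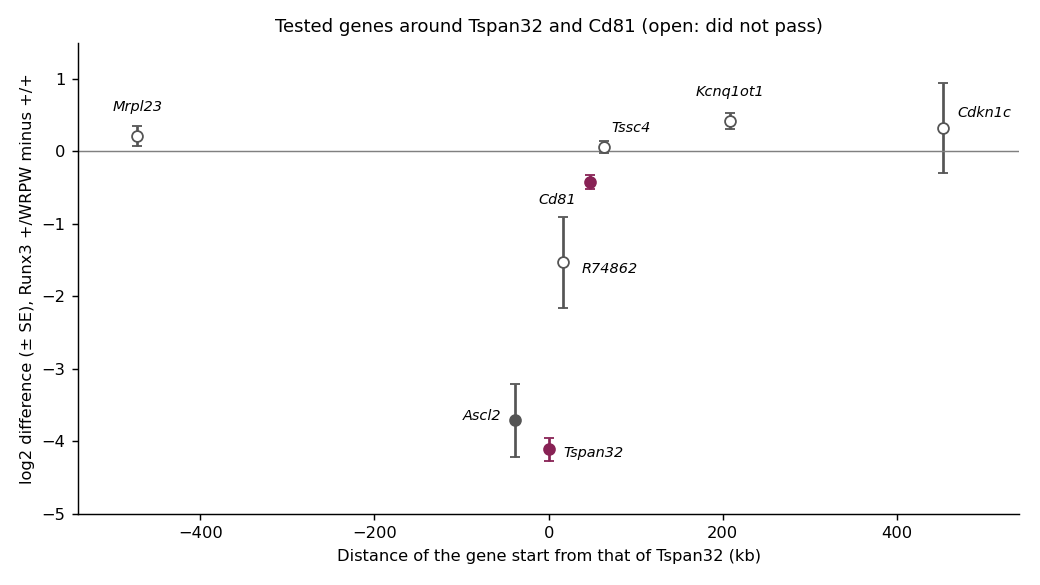
Log2 difference (Runx3 +/WRPW minus Runx3 +/+, ± SE) of the 8 tested genes around Tspan32, against the distance of their start from that of Tspan32 in kb; filled points passed the test. Ascl2 and Tspan32 lie at -3.71 and -4.11, Cd81 at -0.42, and Tssc4 beside it at 0.06.

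The 5 genes whose profile over the 5 libraries lay closest to that of Tspan32, by Euclidean distance of centred log2 CPM, were Ampd1 (distance 0.444), S1pr1 (0.565), Itgae (0.597), Igfbp4 (0.711) and Neil3 (0.801). Ampd1, an AMP deaminase, was at 24.5 and 25.0 CPM in Runx3 +/+ and 1.71, 2.30 and 1.43 CPM in Runx3 +/WRPW. S1pr1 encodes the receptor for exit from the thymus and Itgae the CD103 integrin chain. Igfbp4 encodes a binding protein of insulin-like growth factors and Neil3 a DNA glycosylase. With 2 groups so far apart, likeness over 5 libraries mainly states that these genes are lower by a similar factor, from 12.2-fold for Neil3 to 14.1-fold for Igfbp4.

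The other mouse tetraspanins were read from the same fit. Of 21 genes, 8 passed the count filter; 1 rose (Tspan9), 1 fell (Rom1) and 6 did not pass, beside 6.24% higher and 7.33% lower among all tested genes. Their median log2 difference was -0.23, against 0.02 over all genes. Tspan9 (chromosome 6, 127961396 to 128143578), a tetraspanin known from platelets, was at 72.8 and 70.2 CPM in Runx3 +/+ and 135, 184 and 142 CPM in Runx3 +/WRPW. Every Runx3 +/WRPW library lay well above the Runx3 +/+ pair, and the log2 difference was 1.10 ± 0.14 (SE; edgeR adjusted p = 0.00726), 2.15-fold higher. Rom1 (chromosome 19, 8927382 to 8929356), better known from photoreceptors, was at 6.82 and 8.55 CPM against 4.30, 3.24 and 3.73 CPM. Its log2 difference was -1.03 ± 0.21 (SE; edgeR adjusted p = 0.0279).

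Without Runx3 +/+ library 1 or 2, the log2 difference of Tspan9 was 1.09 or 1.06 and that of Rom1 -1.22 or -0.86. With Runx3 +/WRPW library 1, 2 or 3 left out, edgeR called 1 of the 8 each time. Those fits called 768 of 13446, 1431 of 13303 and 950 of 13621 genes tested. With all libraries, 4 of the 8 were at an unadjusted p under 0.05 in edgeR, beside 4077 of 13666 genes. The limma-voom fit called 2 of 8, beside 1907 of 13666 genes, and DESeq2 called 4 of 12, beside 3427 of 15841. Rom1 lost its call whichever library was left out, and Tspan9 lost it when a Runx3 +/+ library was. Tspan5 and Tspan14, which guide the protease ADAM10 to its substrates, had log2 differences of -0.32 ± 0.12 and 0.12 ± 0.09 (SE) and did not pass. Tspan14 was abundant at 143 ± 16.8 CPM (SD, n = 2) and 156 ± 7.23 CPM (SD, n = 3). Tspan3, Tspan4, Tspan6 and Upk1a did not pass.

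Below the filter were 14 tetraspanins, Cd63 and 13 of the other family genes. None of them exceeded 0.360 CPM in the 4 libraries other than Runx3 +/WRPW library 2. In that library 11 of the 14 had their highest level and 5 were above 1 CPM (Cd63, Tspan8, Tspan10, Tspan12 and Tspan15), up to 3.67 CPM.

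**Figure D4:**
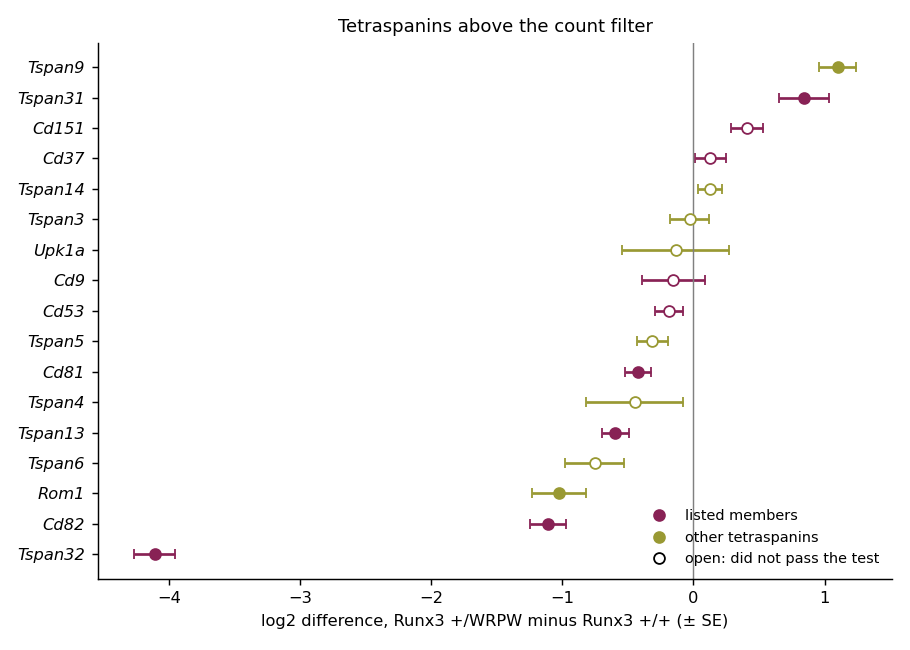
Log2 difference (Runx3 +/WRPW minus Runx3 +/+, ± SE) of the 17 tetraspanins above the count filter; filled points had an adjusted p under 0.05. Tspan32 lies at -4.11, far from the others, which run from -1.11 (Cd82) to 1.10 (Tspan9).

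Proteins that associate with tetraspanins were taken from a list of 34 genes, of which 28 were tested. In Runx3 +/WRPW 5 of them rose, 7 fell and 16 did not pass, so 12 of 28 were called, beside 13.6% of all tested genes (6.24% higher and 7.33% lower). Their median log2 difference was -0.14, against 0.02 over all genes. The list was put together with earlier results of these libraries known. Integrin chains moved both ways, with 3 of 7 higher and 2 lower, against the same 6.24% and 7.33% of all tested genes. Itgb1, the beta-1 chain that pairs with many alpha chains held by Cd81, Cd82 and Cd151, was at 107 and 128 CPM in Runx3 +/+ and 248, 216 and 230 CPM in Runx3 +/WRPW. The groups did not overlap, and the log2 difference was 0.98 ± 0.10 (SE; edgeR adjusted p = 0.00389), 1.97-fold higher. Itgb7, the chain that pairs with CD103 or alpha-4, was at 1011 and 1134 CPM in Runx3 +/+ and 341, 300 and 251 CPM in Runx3 +/WRPW. It fell by 1.85 ± 0.13 on the log2 scale (SE; edgeR adjusted p = 0.00145). The alpha-4 chain gene Itga4, which serves both beta chains and was picked out after its values were seen, was 1.81-fold higher (edgeR adjusted p = 0.00887). Itga6 (1.29-fold higher; edgeR adjusted p = 0.0493) and Itgb2 (1.32-fold lower; edgeR adjusted p = 0.0166) also passed and were likewise picked out afterwards. Itga6 lay just under the threshold of 0.05. With RLE factors, 4 partners rather than 5 were called higher.

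Both genes of the immunoglobulin-superfamily proteins that bind CD9 and CD81 directly were higher in Runx3 +/WRPW. Ptgfrn was at 32.3 and 31.5 CPM in Runx3 +/+ and 61.2, 65.1 and 51.7 CPM in Runx3 +/WRPW. The log2 difference was 0.89 ± 0.11 (SE; edgeR adjusted p = 0.0062). Igsf8, picked out after its values were seen, was at 15.1 and 15.7 CPM against 24.5, 21.4 and 25.3 CPM, 1.55-fold higher (edgeR adjusted p = 0.0187). In neither gene did the genotypes overlap.

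On the cytoplasmic side, Msn, which encodes moesin, a linker of membrane proteins to actin, was at 1633 and 1728 CPM in Runx3 +/+ and 1157, 1026 and 1155 CPM in Runx3 +/WRPW. It was 1.51-fold lower (log2 difference -0.59 ± 0.08 SE; edgeR adjusted p = 0.00758). Ezr, Prkcb, Sdcbp and Adam17 were the other partners that fell, by 1.21-fold to 1.45-fold; they were named to complete the count. Adam10 did not pass, with 201 ± 9.74 CPM (SD, n = 2) and 191 ± 15.6 CPM (SD, n = 3). Ifitm1 to Ifitm3, whose products associate with CD81, were below the filter.

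With Runx3 +/WRPW library 1, 2 or 3 left out, 5 of 28, 10 of 27 and 9 of 28 partners were called. Over all genes tested, those fits called 768 of 13446, 1431 of 13303 and 950 of 13621. Fewer partners were also called when a Runx3 +/+ library was left out, and calls over all genes fell too. Itgb7 was called whichever library was left out. Itgb1 needed Runx3 +/+ library 1 for its call, and Ptgfrn and Msn needed both Runx3 +/+ libraries.

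**Figure D5:**
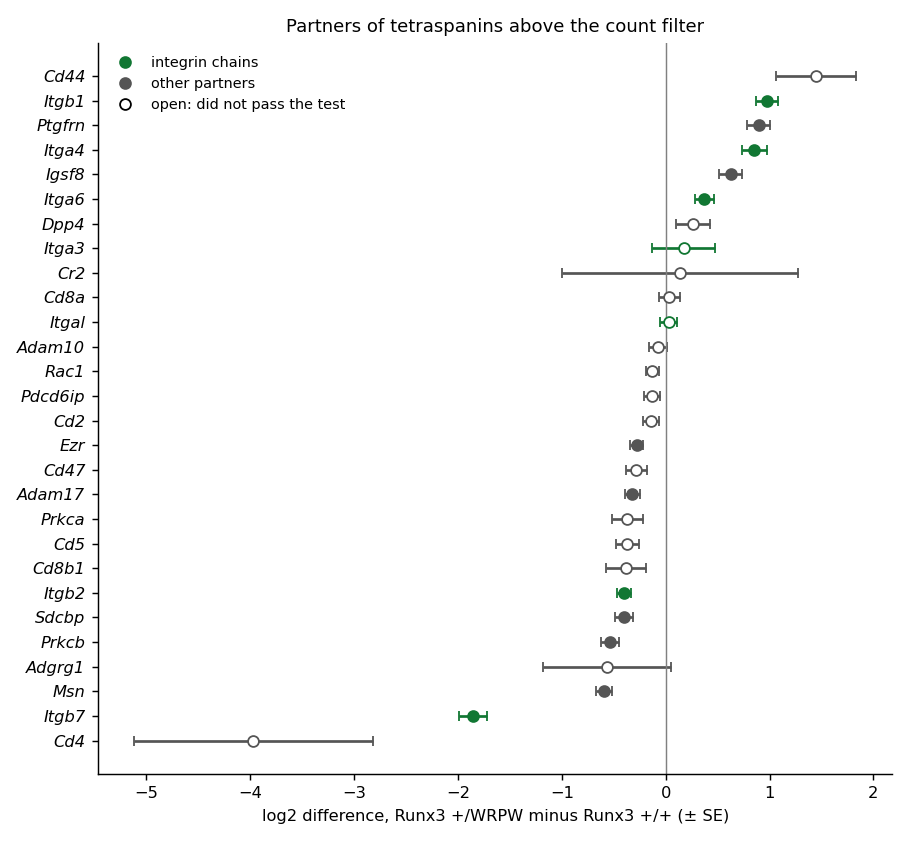
Log2 difference (Runx3 +/WRPW minus Runx3 +/+, ± SE) of the 28 tested partners of tetraspanins, integrin chains in green; filled points had an adjusted p under 0.05. Itgb1 lies at 0.98 and Itgb7 at -1.85, and Cd4, at the bottom, has a wide error and did not pass. Most Cd4 counts came from Runx3 +/+ library 2 (134, against 10 in Runx3 +/+ library 1).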

How the data were processed

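The authors deposited raw counts of reads per gene symbol, 1 file per library, without normalization. The submitters' processing notes name mm10, featureCounts 2.0.8, HISAT2 2.2.1, cutadapt 4.0 and edgeR 3.36.0. The strand setting, annotation and treatment of multiply mapping reads are not given there. The header of the file of Runx3 +/+ library 2 bears another number and that of Runx3 +/WRPW library 2 a general aligner name; files were assigned by the sample records.

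In R 4.3.3, edgeR 4.0.16 gave the tests by glmQLFit and glmQLFTest after TMM scaling (0.981 to 1.034) and filterByExpr at 10 counts, adjusted over 13666 genes; a gene is called, and "rose" or "fell", at an adjusted p under 0.05. CPM are TMM-scaled. The common biological coefficient of variation was 0.211. No pair of libraries agreed within sampling noise (smallest chi-square per gene 14.2). Before TMM scaling, 3 counts equal 0.0686 to 0.191 CPM, depending on the library. Exon lengths and overlaps came from GENCODE M21 (GRCm38), positions and promoters from RefSeq GRCm38.p6, by symbol (10 of 10 members). The fit was tested on simulated data. Proteins were not compared.

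The members and all lists (other tetraspanins, partners, markers) were chosen with earlier results of these data known. Named genes are the members, up to 4 called genes per other list by p and called genes within 500 kb of Tspan32. The 5 nearest profiles among genes averaging 1 or more on the log2 CPM scale were also named. Called partners picked out afterwards are marked. Cdk4, R74862, Tssc4, Kcnq1ot1, Tspan5, Tspan14 and Adam10 fall outside this rule and are not marked. So do the markers and the other genes named as not passing or below the filter. The alternatives replaced the test by limma-voom (limma 3.58.1) or DESeq2 1.42.0, the scaling by upper-quartile or RLE factors, and the count filter by none or a stricter one, made the dispersion robust, added a replicate block, or left out each library.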

Additional observations from a re-analysis of the deposited data

How the results depend on the processing

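Across 13 alternatives, 1855 called genes, 5 members, 2 other tetraspanins and 12 partners stayed within 1.5 times except as follows. DESeq2 called 3427 genes and 4 other tetraspanins. With no low-count filter, which tested 28583 genes, 1079 genes, 3 members, 1 other tetraspanin and 7 partners were called. Leaving out 1 library at a time gave 277 to 1431 genes, 1 to 4 members, 0 to 1 other tetraspanins and 2 to 10 partners; with 1 Runx3 +/+ library left, it was assumed to vary like the other genotype. The replicate block called 754 genes, 4 members, 1 other tetraspanin and 5 partners. The numbers are not known to pair the samples: the deviations of same-numbered libraries correlated at -0.0492 and 0.00244 (2 pairs, across genes). Of the member and named-gene differences, 237 kept sign and side of the threshold, 34 lost the call and 1 gained it (Cd151 in DESeq2). The remaining one, Cd9, changed sign, to 0.21 without Runx3 +/+ library 2 (-0.48 to 0.21 over the libraries left out). Cd63 and 13 other tetraspanins were below the count filter and were not tested in the fit reported.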
